A study of Mus musculus with 2 samples.

Results

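The genes C1qa, C1qb, C1qc, Cd5l, Vcam1, Slc40a1, Hmox1, Axl, Mertk and Mrc1 were followed by name through single cells of mouse bone marrow, as genes of tissue macrophages that serve complement, iron handling and scavenging. All 10 were listed in both deposited count tables, out of 27842 genes listed in at least 1 of them. Their levels, the cells that held them and their joint presence in single cells were measured in each library, in macrophages, monocytes and dendritic cells.

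Marrow was taken from the femur and tibia of C57/BL6 mice. The T1D library came from mice made diabetic with streptozotocin, a toxin of insulin-producing beta cells, and with high blood sugar. The control library came from mice given sodium citrate and with normal blood sugar. Both were freed with collagenase I and dispase II, cleared of red cells by lysis and sequenced with the Singleron GEXSCOPE kit, and how many mice gave each library is not given in the sources used here. With 1 library per group, no difference below has a replicate check, and the condition and the library cannot be told apart. All intervals are exact 95% intervals that cover counting error only. The T1D library kept 15579 cells with a median of 2757 counts, and the control library kept 12803 cells with a median of 3633 counts. The libraries shared 249 barcodes among kept cells and none was removed.

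Marrow macrophages engulf worn-out blood cells and the nuclei that maturing red cells expel, and return the iron of their heme to the blood. Heme oxygenase 1, made from Hmox1, opens the heme ring, and ferroportin, made from Slc40a1, carries the freed iron out of the cell. C1q, built of the chains of C1qa, C1qb and C1qc, starts the classical complement pathway and coats dying cells, Mertk and Axl are receptor kinases that recognise dying cells through bridging proteins, and Mrc1 is the mannose receptor. Vcam1 is an adhesion molecule with which macrophages hold maturing red cells and blood stem cells, and Cd5l is a protein secreted by macrophages that protects them from cell death.

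Promoters of Cd5l, C1qb and C1qc are shown because these genes differed in opposite directions between the macrophages of the libraries. RefSeq's promoter table for GRCm38.p6, a later build than the mm9 named in the submitters' processing notes, held 6 of the 10 genes. Each sequence is the 250 bases before the gene's start, read 5′ to 3′ on the gene's own strand. Cd5l lies at chr3:87357631-87357880 on the plus strand, C1qb at chr4:136886201-136886450 and C1qc at chr4:136892915-136893164, both on the minus strand. Capitals mark TGCTGA, the core of the half-site of Maf family factors, or its reverse complement TCAGCA.
Cd5l: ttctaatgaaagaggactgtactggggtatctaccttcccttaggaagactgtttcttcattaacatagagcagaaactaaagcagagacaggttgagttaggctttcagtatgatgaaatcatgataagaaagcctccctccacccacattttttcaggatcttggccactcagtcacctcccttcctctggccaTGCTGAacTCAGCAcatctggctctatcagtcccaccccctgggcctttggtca
C1qb: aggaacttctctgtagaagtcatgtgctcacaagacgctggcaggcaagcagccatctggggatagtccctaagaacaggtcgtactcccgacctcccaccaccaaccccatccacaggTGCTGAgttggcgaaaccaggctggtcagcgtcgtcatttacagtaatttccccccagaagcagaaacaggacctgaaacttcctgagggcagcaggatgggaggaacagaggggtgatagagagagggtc
C1qc: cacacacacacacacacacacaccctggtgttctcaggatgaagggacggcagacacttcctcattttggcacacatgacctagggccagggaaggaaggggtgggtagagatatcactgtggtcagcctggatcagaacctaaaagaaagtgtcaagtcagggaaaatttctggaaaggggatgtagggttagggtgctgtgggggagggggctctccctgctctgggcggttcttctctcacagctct
Maf family factors are transcription factors with roles in macrophages. Cd5l had 2 matches, C1qb had 1 and C1qc, Mrc1, Mertk and Axl had none, while 16.1% of all 32851 promoters in the table held at least 1. In Cd5l the forward and reverse forms stood face to face, a layout with a gap of 1 to 4 bases that 5 of the 32851 promoters had. These are letter matches, and nothing about binding follows from them.

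The cells were clustered without the 10 genes, and classes were named from other markers, so a name means cells with that marker profile. Macrophages were 52 of the T1D cells (0.334%, 0.249 to 0.437%) and 69 of the control cells (0.539%, 0.420 to 0.682%), a ratio of shares of T1D over control of 0.619 (0.424 to 0.901). This ratio depended on the clustering, and it was 1.01 when the macrophage and dendritic cell clusters were parted with 1000 genes and 15 components (37 T1D and 30 control cells). Of 16 macrophage markers, 14 had counts in each library, summing to 7438 CPM (counts per 1000000 counts of the class in that library) in T1D macrophages and 6290 CPM in control macrophages. Timd4 and Vsig4 were at 0 in T1D macrophages, and Vsig4 and Marco were at 0 in control macrophages. Median depth was 2670 counts per T1D macrophage and 4010 per control macrophage.

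Each of the 10 genes had its highest CPM in macrophages among the 13 classes with at least 50 cells in both libraries, with an interval clear of the next class in both libraries. For all but Vcam1 and Slc40a1 the second class was the nonclassical monocyte in both libraries. Its interval overlapped that of the third class for C1qb in T1D (33.3 CPM), Mertk in T1D (3.33 CPM) and Cd5l in control (6.69 CPM). Vcam1 was next highest in monocyte and granulocyte progenitors and nonclassical monocytes, whose intervals overlapped in both libraries, at 249.5 and 226 CPM in the T1D library and 234 and 301 CPM in the control library. Slc40a1 was next highest in mature neutrophils, at 169 CPM in T1D and 166 CPM in control cells. Conventional dendritic cells (25 in T1D and 65 in control) and stromal and endothelial cells (17 in T1D and 19 in control) were too few for that ranking. Cells of unnamed clusters (683 in T1D and 438 in control) were not ranked either. The stromal and endothelial cells had 1410 CPM of Vcam1 in the T1D library and 1079 CPM in the control library.

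**Figure D1:**
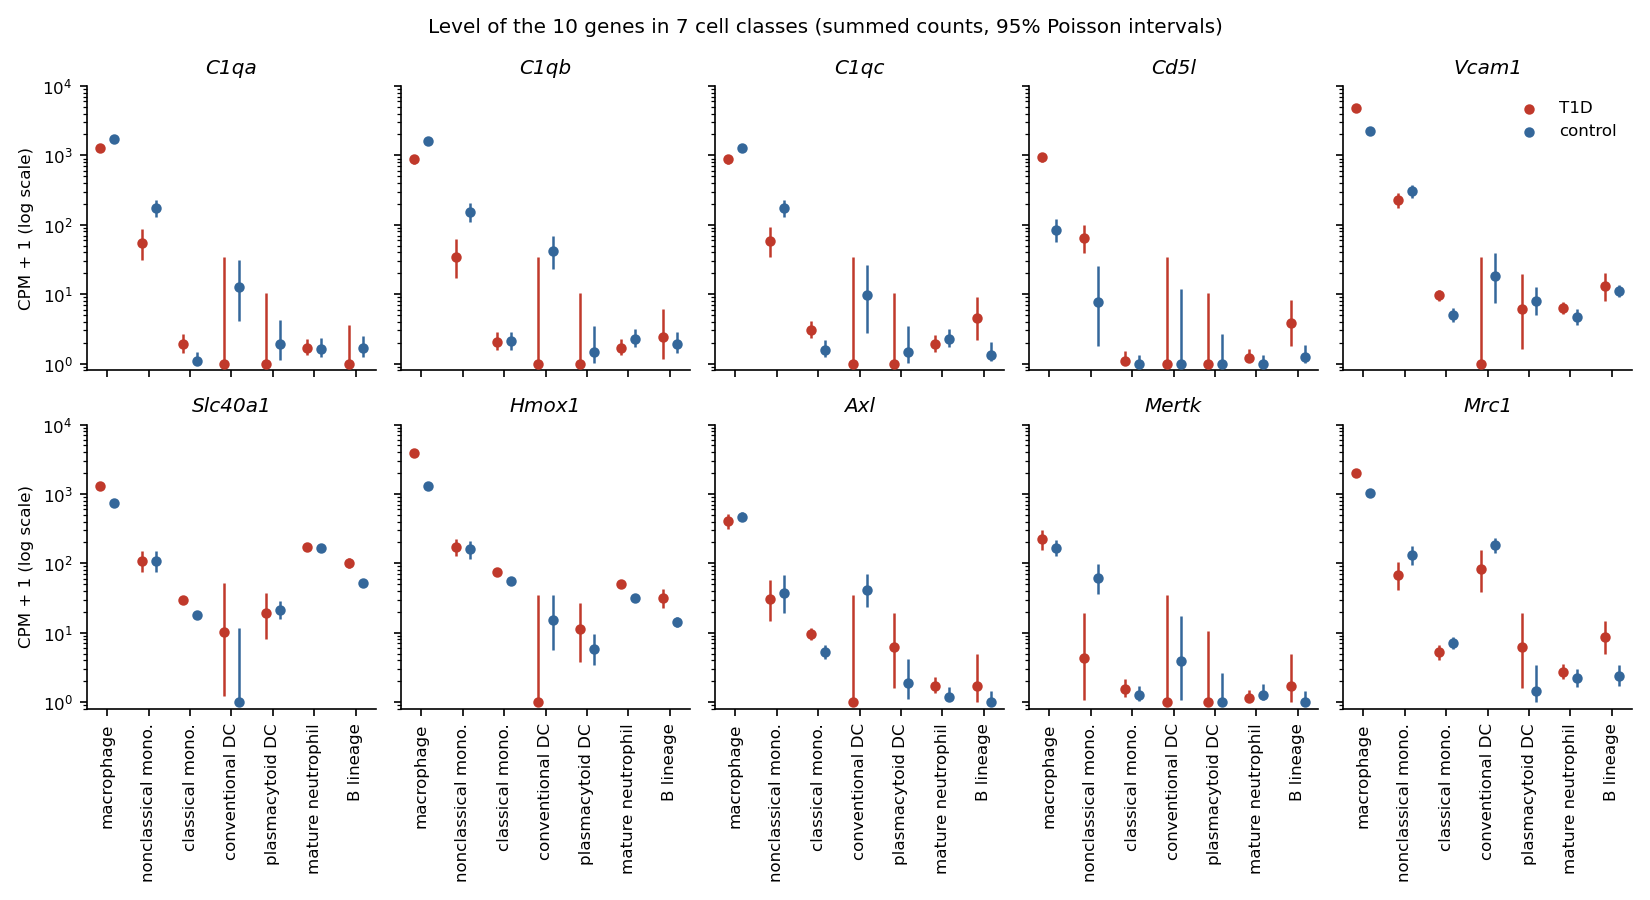
Level of each of the 10 genes as CPM + 1 (log axis) in macrophages, monocytes, dendritic cells, mature neutrophils and the B lineage (x axis), with T1D left of control and exact Poisson 95% intervals. Among the classes with at least 50 cells in both libraries macrophages stand highest for every gene, and within macrophages Cd5l shows the widest gap between the libraries, 938 CPM in T1D macrophages and 82.8 CPM in control macrophages.

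The genes parted by how far they were confined to macrophages. Macrophages held 70.7% of all C1q counts of the T1D library (535 of 757) and 72.0% of those of the control library (1568 of 2178). Cells of unnamed clusters held 55 of the T1D and 333 of the control C1q counts. Macrophages held 81.0% of T1D and 77.8% of control Cd5l counts, and 70.9% of T1D and 62.9% of control Mertk counts. Mrc1 had 65.0% of its T1D counts and 49.5% of its control counts in macrophages. The iron genes lay mostly elsewhere. Macrophages held 4.06% of T1D and 5.57% of control Slc40a1 counts, against 43.4% of T1D and 40.3% of control counts in mature neutrophils. They held 24.9% of T1D and 22.0% of control Hmox1 counts, against 29.7% of T1D and 32.9% of control counts in classical monocytes. Macrophages held 29.8% and progenitors 39.4% of the T1D Vcam1 counts, and macrophages held 34.4% and progenitors 32.6% of the control Vcam1 counts. Macrophages held 30.5% and classical monocytes 41.2% of the T1D Axl counts, and macrophages held 51.3% and classical monocytes 16.8% of the control Axl counts.

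Single-cell data can hold stray RNA of other cells, so the share of cells with a count was set beside that in mature neutrophils and B cells. How much of the counts there is stray RNA, and how much comes from doublets, was not tested. A count of any C1q chain was found in 78.8% of T1D macrophages (41 of 52) and 81.2% of control macrophages (56 of 69), against 0.278% of T1D and 0.540% of control mature neutrophils, whose median depths were 2242 counts in T1D and 2759 in control. Cells of the B lineage had it in 0.727% of T1D and 0.569% of control cells. Cd5l was in 0.0521% of T1D neutrophils and in 0 of 3516 control neutrophils, which allows a share of up to 0.0853%. Slc40a1, in 28.7% of T1D and 33.8% of control neutrophils, and Hmox1, in 9.89% of T1D and 7.99% of control neutrophils, were far commoner there than the other genes, and for these a neutrophil share is no background.

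In macrophages Cd5l, Hmox1 and Vcam1 were higher in T1D, Slc40a1 and Mrc1 had higher values and the C1q chains lower values short of the size rule, and Axl and Mertk had ratios whose intervals spanned 1. The size rule asked for an absolute log2 ratio of T1D over control of at least 1 with 5 CPM added to both, a level of 50 CPM or more in whichever library was higher and an interval of the ratio clear of 1. Cd5l, Vcam1 and Hmox1 passed it as higher in T1D, 3 of 10 genes against 7.59% of the 3307 genes with enough counts, and 0 of 10 passed as lower, against 8.35%. The median log2 ratio was 0.60 over the 10 genes and -0.04 over all 3307. Markers of other cells differed as well. Nonclassical monocyte markers summed to 1910 CPM in T1D (9 of 10 with counts) and 922 CPM in control macrophages (10 of 10). Conventional dendritic cell markers summed to 6392 CPM in T1D (11 of 13 with counts) and 11380 CPM in control macrophages (9 of 13), and erythroid markers to 4516 CPM in T1D and 2409 CPM in control macrophages (8 of 9 in each, with Klf1 at 0). Immature neutrophil markers summed to 4996 CPM in T1D and 6116 CPM in control macrophages (7 of 7 in each). Their part in the values below was not tested.

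C1qa had 225 counts in T1D macrophages (1272 CPM, 1111 to 1449) and 579 in control macrophages (1712 CPM, 1575 to 1857). C1qb had 155 counts in T1D (876 CPM, 744 to 1025) and 553 in control macrophages (1635 CPM, 1501 to 1777). C1qc had 155 counts in T1D (876 CPM, 744 to 1025) and 436 in control macrophages (1289 CPM, 1171 to 1416). All chains were thus lower in CPM in T1D, with intervals that did not overlap, but none reached the size rule. The ratio was 0.743 (0.634 to 0.868) for C1qa, 0.536 (0.446 to 0.642) for C1qb and 0.680 (0.562 to 0.818) for C1qc. Their sum was 3024 CPM in T1D and 4635 CPM in control macrophages, a ratio of 0.652 (0.590 to 0.720) and a log2 ratio of -0.62. Per cell, the sum reached at most 48 counts in T1D with a median of 6, and at most 149 counts in control macrophages with a median of 16. C1qb gave 29.0% of the C1q counts in T1D macrophages and 35.3% in control macrophages.

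Cd5l was detected in 28 of 52 T1D macrophages (53.8%) and 9 of 69 control macrophages (13.04%). It had 166 counts in T1D (938 CPM, 801 to 1092) and 28 in control macrophages (82.8 CPM, 55.0 to 120), a ratio of 11.3 (7.56 to 17.6) and a log2 ratio of 3.43. No single cell made the difference: the highest T1D macrophage had 25 Cd5l counts and the highest control macrophage had 8. With every cell thinned to 1000 counts, Cd5l was still found in 44.2% of T1D and 7.25% of control macrophages.

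Hmox1 had 699 counts in T1D macrophages (3951 CPM, 3663 to 4255) and 435 in control macrophages (1286 CPM, 1168 to 1413), a ratio of 3.07 (2.72 to 3.47). Slc40a1 had 227 counts in T1D (1283 CPM, 1122 to 1461) and 249 in control macrophages (736 CPM, 647 to 833). Its ratio of 1.74 (1.45 to 2.10) stayed under the size rule. Vcam1 had 854 counts in T1D (4827 CPM, 4508 to 5162) and 756 in control macrophages (2235 CPM, 2078 to 2400), a ratio of 2.16 (1.96 to 2.39). The share of cells with a count differed less than the level. Hmox1 was in 65.4% of T1D and 59.4% of control macrophages, and Vcam1 in 73.1% of T1D and 58.0% of control macrophages. After thinning, Hmox1 was in 55.8% of T1D and 40.6% of control macrophages, and Vcam1 in 69.2% of T1D and 46.4% of control macrophages. Vcam1 and Hmox1 fell short of the size rule in the clustering with 1000 genes and 15 components, with log2 ratios of 0.50 for Vcam1 and 0.88 for Hmox1 in place of 1.11 and 1.62, while Cd5l stood at 2.74. Vcam1 also fell short without the Cxcl9 sub-cluster described below (0.96), without the Gpnmb sub-cluster (0.95) and in cells taken by 3 or more macrophage markers in place of clusters (0.88).

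Mrc1 had 349 counts in T1D macrophages (1973 CPM, 1771 to 2191) and 348 in control macrophages (1029 CPM, 923 to 1143), a ratio of 1.92 (1.65 to 2.23) that stayed just under the size rule at a log2 ratio of 0.94, and was past it at 1.03 once class totals excluded ribosomal RNA. The receptor kinases showed no difference beyond counting error. Axl had 71 counts in T1D (401 CPM, 313 to 506) and 159 in control macrophages (470 CPM, 400 to 549), a ratio of 0.854 (0.636 to 1.14). Mertk had 39 counts in T1D (220.4 CPM, 157 to 301) and 56 in control macrophages (166 CPM, 125 to 215), a ratio of 1.33 (0.861 to 2.04).

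**Figure D2:**
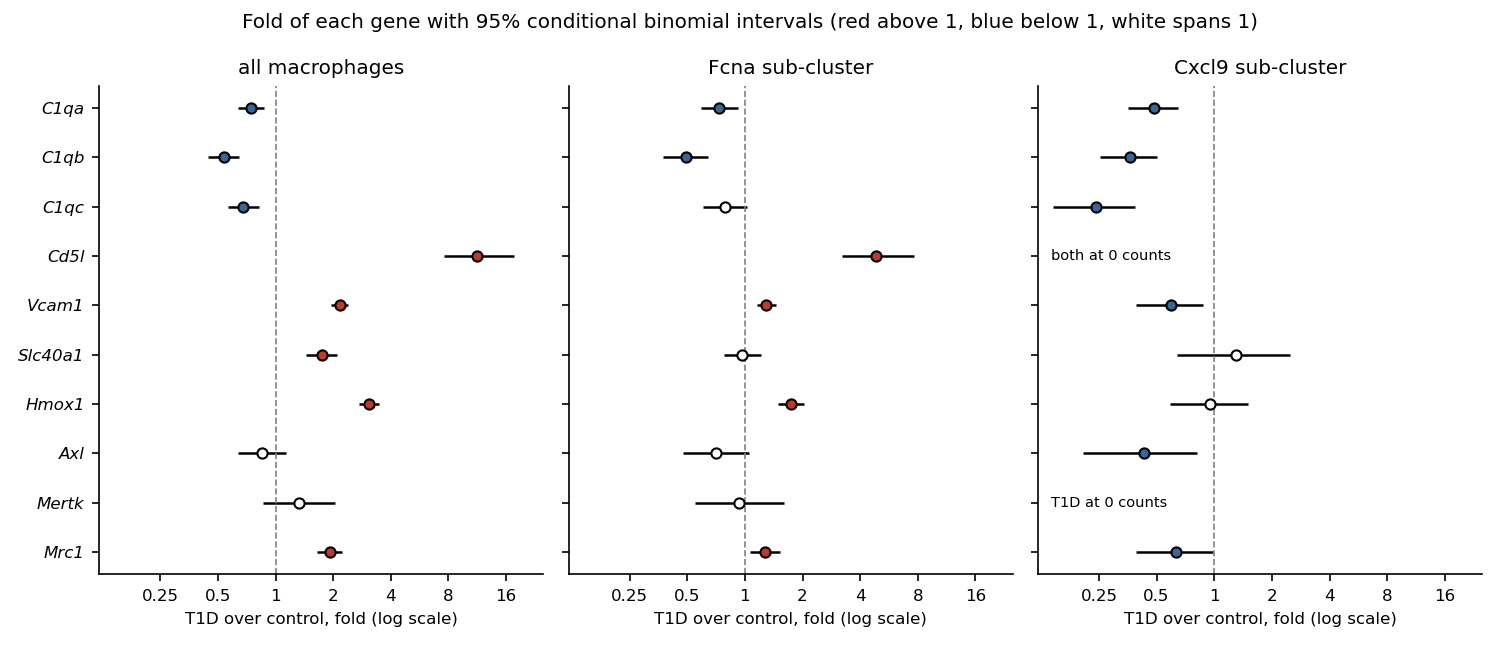
Ratio of T1D over control (x axis, log scale) for the 10 genes in all macrophages and in their Fcna and Cxcl9 sub-clusters, with exact conditional binomial 95% intervals. Over all macrophages Cd5l stands at 11.3, Hmox1 at 3.07 and Vcam1 at 2.16, while the C1q chains lie between 0.536 and 0.743.

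The macrophages fell into 3 sub-clusters whose mix differed between the libraries. The sub-cluster led by Fcna, with Gdf15 and Spic also among its leading genes, held 31 of 52 T1D macrophages (59.6%, 45.1 to 73.0%) and 19 of 69 control macrophages (27.5%, 17.5 to 39.6%). The sub-cluster led by Cxcl9 and class II genes such as H2-Aa held 15 T1D macrophages (28.8%, 17.1 to 43.1%) and 38 control macrophages (55.1%, 42.6 to 67.1%). The sub-cluster led by Gpnmb with the osteoclast genes Ctsk, Acp5 and Atp6v0d2 held 6 T1D (11.5%) and 12 control macrophages (17.4%). These sub-clusters were cut with settings chosen after the data had been seen, and their sizes are small.

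The Fcna sub-cluster had higher levels of Vcam1, Hmox1, Slc40a1, Mrc1, Cd5l and Mertk than the Cxcl9 sub-cluster in both libraries. Against the Cxcl9 sub-cluster of the same library, its level of Vcam1 was 13.6 times as high in T1D (9.52 to 20.2) and 6.26 times as high in control cells (5.22 to 7.54). The ratio for Hmox1 was 11.2 in T1D and 6.16 in control cells, for Mrc1 it was 7.22 in T1D and 3.57 in control cells, and for Slc40a1 it was 7.50 in T1D and 10.01 in control cells. Cd5l had 0 counts in the Cxcl9 sub-cluster of either library. By the interval of the ratio, its level in the Fcna sub-cluster was at least 23.7-fold higher in T1D and at least 14.0-fold higher in control cells. With 3 counts in place of 0, the fold was 29.5 in T1D and 18.5 in control cells. Mertk was at least 4.83-fold higher in T1D by the interval, and 6.31-fold higher with 3 counts in place of 0. In control cells Mertk was 3.42 times as high. The ratio for Axl was 2.61 in T1D and 1.58 in control cells, the control value short of the size rule. C1q did not part the sub-clusters in the same way. Its sum was 1.87 times as high in the Fcna as in the Cxcl9 sub-cluster in T1D (1.51 to 2.34), and the ratio was 1.05 in control cells (0.940 to 1.18). By the size rule 8 of 10 genes were higher in the Fcna sub-cluster in T1D, against 4.16% of 3770 genes, and 6 of 10 in control cells, against 8.60% of 3069 genes. The cells were clustered on other genes that vary together with these, so these ratios describe the sub-clusters. The Cxcl9 sub-cluster includes 8 T1D and 6 control cells with under 3 macrophage markers, and all ratios above include them. Without such cells the C1q sum was 3955 CPM in the Fcna and 3576 CPM in the Cxcl9 sub-cluster in T1D. In control cells it was 5785 and 5884 CPM. Vcam1 was then 7967 and 990 CPM in T1D, and 6008 and 1088 CPM in control cells.

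**Figure D3:**
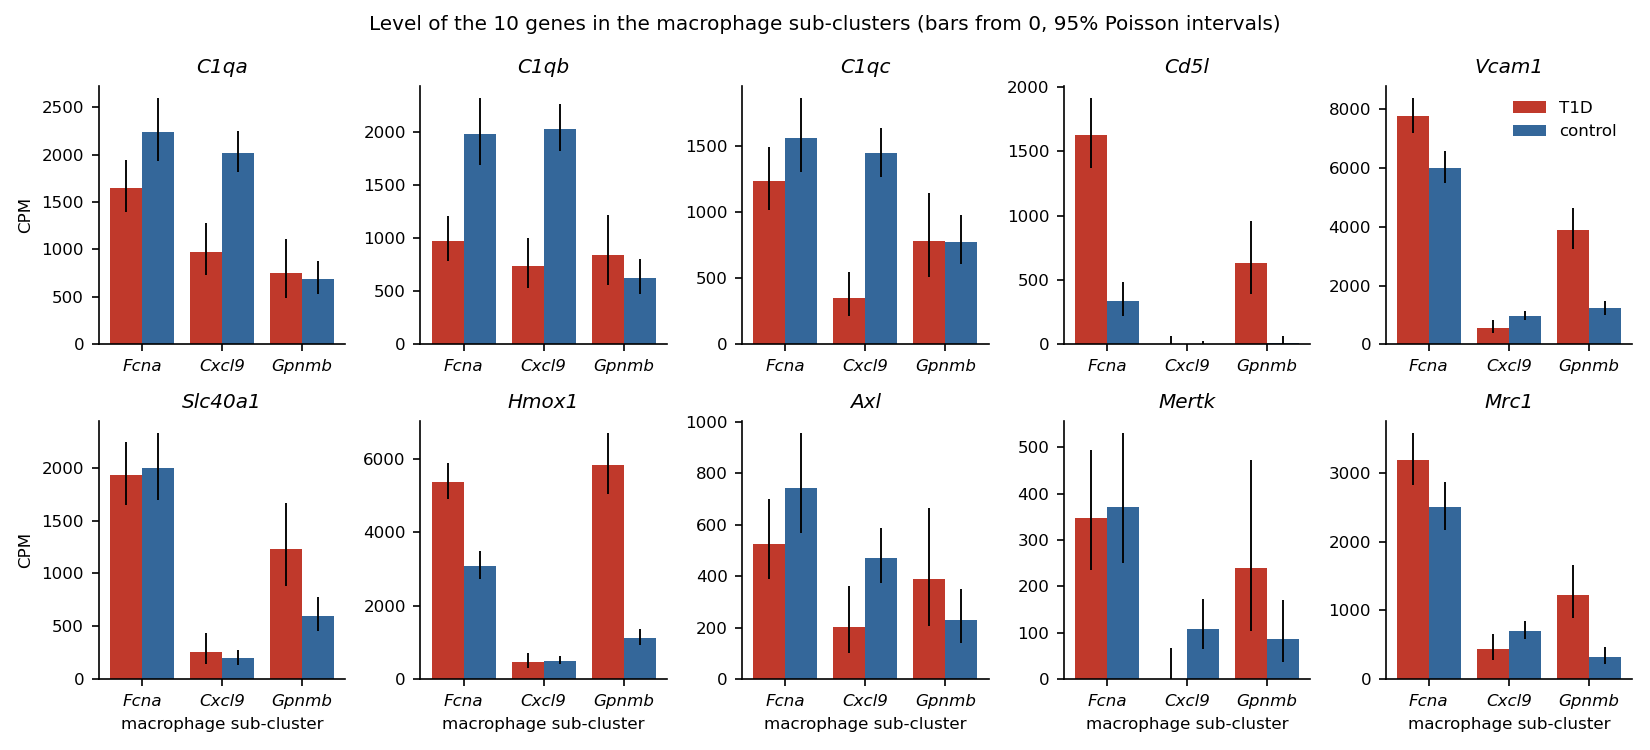
Level of each of the 10 genes in CPM (linear axis from 0) in the Fcna, Cxcl9 and Gpnmb sub-clusters of macrophages, with T1D left of control and exact Poisson 95% intervals. Cd5l is at 1626 CPM in T1D and 334 CPM in control cells of the Fcna sub-cluster and at 0 in the Cxcl9 sub-cluster of both.

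Within the Fcna sub-cluster most differences between the libraries were smaller than over all macrophages. Cd5l had 145 counts in 24 of 31 T1D cells (1626 CPM) and 27 counts in 8 of 19 control cells (334 CPM), a ratio of 4.86 (3.21 to 7.63). C1qb had 976 CPM in T1D and 1982 CPM in control cells, a ratio of 0.492 (0.375 to 0.643). These were the only genes of the 10 past the size rule there, 1 higher against 6.75% of 3036 genes and 1 lower against 6.29%. Hmox1 had 5373 CPM in T1D and 3084 CPM in control cells, a ratio of 1.74 (1.49 to 2.04). Vcam1 had 7773 CPM in T1D and 6008 CPM in control cells, a ratio of 1.29 (1.15 to 1.46). Slc40a1 had 1929 CPM in T1D and 1994 CPM in control cells, a ratio of 0.967 (0.776 to 1.21). So the ratio of Slc40a1, 1.74 over all macrophages, was near 1 here, while those of Hmox1 and Cd5l were smaller but still above 1. The median log2 ratio of the 10 genes was -0.07, and 0.11 over all genes with enough counts. Erythroid markers, of which 8 of 9 had counts in T1D and 7 of 9 in control cells of this sub-cluster, summed to 5866 CPM in T1D and 9501 CPM in control cells. Conventional dendritic cell markers summed to 561 CPM in T1D (6 of 13) and 2676 CPM in control cells (7 of 13). Nonclassical monocyte markers summed to 2154 CPM in T1D (7 of 10) and 557 CPM in control cells (6 of 10), and stromal and endothelial markers to 1716 CPM in T1D (4 of 12) and 495 CPM in control cells (3 of 12, with Col1a1 and Lepr at 0 in both). The part of these markers in the values was not tested. Without the 1 T1D cell that had under 3 macrophage markers, C1qb fell short of the size rule at a log2 ratio of -0.98, and Cd5l stayed past it at 2.30.

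In the Cxcl9 sub-cluster the complement chains and receptor kinases were lower in T1D. C1qc had 349 CPM in T1D and 1443 CPM in control cells, a ratio of 0.242 (0.143 to 0.387), the lowest of the chains. The C1q sum had 2059 CPM in T1D and 5492 CPM in control cells, a ratio of 0.375 (0.305 to 0.457). Axl had 202 CPM in T1D and 471 CPM in control cells, and Mertk had 0 counts in T1D and 18 in control cells. By the interval of the ratio Mertk was at least 1.44-fold lower in T1D, and 1.97-fold lower with 3 counts in place of 0. All chains, Axl and Mertk passed the size rule as lower, 5 of 9 genes with enough counts against 3.15% of 3688 genes, and 0 of 9 passed as higher, against 10.8%. The median log2 ratio was -0.90 over the full set of followed genes and 0.35 over all 3688. That full set includes Cd5l, which had 0 counts in both libraries here and so too few for the rule. Hmox1 had 478 CPM in T1D and 501 CPM in control cells, but all 26 T1D counts were in 1 cell, while the 83 control counts were in 15 cells.

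These lower values went with fewer cells that held C1q at all. In the Cxcl9 sub-cluster 6 of 15 T1D cells (40.0%) and 29 of 38 control cells (76.3%) had a C1q count. The T1D cells with C1q held 11 to 33 C1q counts with a median of 15 (3925 CPM), and the control cells with C1q held 3 to 149 with a median of 22 (6860 CPM). The 9 T1D cells without C1q had a median of 0 macrophage markers, 1083 CPM of macrophage markers and 24705 CPM of conventional dendritic cell markers. The 9 control cells without C1q had a median of 3 macrophage markers, 4420 CPM of macrophage markers and 17258 CPM of dendritic cell markers. The cells with C1q also held dendritic cell markers, at 14263 CPM in T1D and 21869 CPM in control, with 7079 CPM of macrophage markers in T1D and 7033 CPM in control. Xcr1 and Clec9a, markers of a conventional dendritic cell subset, had counts in the T1D cells of the sub-cluster and 0 counts in its control cells. Removing the 8 T1D and 6 control cells with under 3 macrophage markers, a filter chosen after seeing the data, left 7 T1D and 32 control cells, in which the C1q sum ratio was 0.608 (0.495 to 0.741) and C1qc alone passed as lower, at 0.386 (0.228 to 0.616). C1qa, C1qb, Axl and Mertk no longer passed, the ratio of Vcam1 was 0.910 (0.598 to 1.34), and Slc40a1, with 14 T1D and 32 control counts, passed as higher at 2.04 (1.01 to 3.94). Immature neutrophil markers summed to 5625 CPM in T1D and 1237 CPM in control cells of the sub-cluster. Without the Cxcl9 sub-cluster (37 T1D and 31 control macrophages), the log2 ratio of the C1q sum in macrophages was -0.14 in place of -0.62. Without the cells under 3 macrophage markers (43 T1D and 61 control macrophages), it was -0.56.

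The Gpnmb sub-cluster, with 6 T1D and 12 control cells, gave the widest ratios and the thinnest evidence. Hmox1 had 5812 CPM in T1D and 1121 CPM in control cells, where 90 of 103 counts came from 1 cell. Vcam1 had 3895 CPM in T1D and 1219 CPM in control cells, and Mrc1 had 1228 CPM in T1D and 326 CPM in control cells. Cd5l had 21 counts in T1D and 1 count in control cells, a ratio of 57.8 (9.30 to 2391). With Slc40a1, 5 of 10 genes passed the size rule as higher in T1D, against 5.73% of 4155 genes, and 0 of 10 as lower, against 5.61%. The C1q sum had 2367 CPM in T1D and 2079 CPM in control cells, a ratio of 1.14 (0.865 to 1.49), and 48 of its 79 T1D counts came from 1 cell. The control level was set in part by 4 cells without C1q, which had a median depth of 11943 counts and 489 CPM of macrophage markers. Without the 2 control cells that had under 3 macrophage markers, the ratio of the C1q sum was 0.801 (0.609 to 1.05), that of Vcam1 was 2.25 (1.73 to 2.92) in place of 3.20, that of Mrc1 was 2.65 (1.61 to 4.39) in place of 3.76 and that of Hmox1 was 3.65 (2.86 to 4.68) in place of 5.19. Slc40a1 then no longer passed, at 1.44 (0.940 to 2.20).

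Single macrophages held many of the genes at once. At least 3 of the 10 were found in 42 of 52 T1D macrophages (80.8%, 67.5 to 90.4%) and 55 of 69 control macrophages (79.7%, 68.3 to 88.4%), and with cells thinned to 1000 counts in 76.9% of T1D and 72.5% of control macrophages. The median was 7 genes per cell in both libraries. The spread was wider in T1D, where 12 cells had all 10 genes and 9 had none, against 3 control cells with all 10 and 2 with none. Thinned to 1000 counts, no T1D cell and 1.45% of control cells had all 10, and 17.3% of T1D and 13.04% of control cells had none, so most of this contrast was not seen at equal depth. Of the 9 T1D macrophages with none of the genes, 8 lay in the Cxcl9 sub-cluster, where the median T1D cell held 0 of the 10 and the median control cell held 5. These 8 are among the T1D cells of that sub-cluster without C1q, which had a median of 0 macrophage markers. Whether they are macrophages was not tested.

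**Figure D4:**
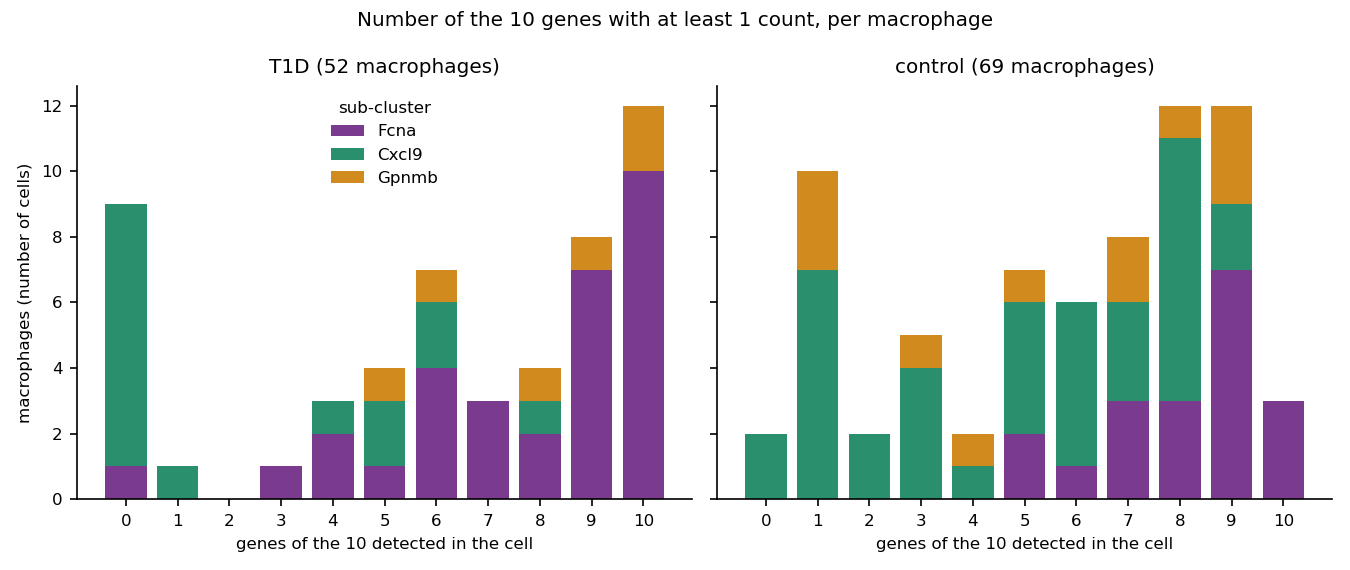
Number of macrophages (y axis) by how many of the 10 genes had at least 1 count in the cell (x axis), in T1D at the left and control at the right, coloured by sub-cluster. In T1D 12 cells hold all 10 genes and 9 hold none, and in control 3 cells hold all 10 and 2 hold none.

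Most macrophages with 1 C1q chain held another. Of macrophages with any chain, 36 of 41 in T1D (87.8%) and 55 of 56 in control (98.2%) had at least 2 chains, and 27 T1D and 47 control macrophages had all 3. Of classical monocytes with any chain, 3 of 14 in T1D (21.4%) and 2 of 12 in control (16.7%) had at least 2, and of such neutrophils 18.8% in T1D and 5.26% in control did. Nonclassical monocytes with any chain had all 3 in 4 of 7 T1D and 5 of 5 control cells, and cells of unnamed clusters had at least 2 in 8 of 12 T1D and 25 of 40 control cells.

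Some other pairs also met in the same cells. Hmox1 and Vcam1 were together in 33 T1D macrophages, out of 34 with Hmox1 and 38 with Vcam1, and in 33 control macrophages, out of 41 with Hmox1 and 40 with Vcam1. Of the macrophages with Slc40a1, 27 of 29 in T1D and 29 of 32 in control also had Hmox1, the pair that frees and exports heme iron. Every T1D macrophage with Cd5l (28 of 28) and 8 of 9 such control macrophages also had Vcam1. All 22 T1D macrophages with Mertk and 22 of 23 such control macrophages also had Mrc1. C1q and Hmox1 met less fully. Over all kept cells with 2 or 3 C1q chains, 41 T1D and 58 control cells had Hmox1, and 17 T1D and 33 control cells did not. How far these overlaps exceed those given by each gene's own share of cells was not tested.

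**Figure D5:**
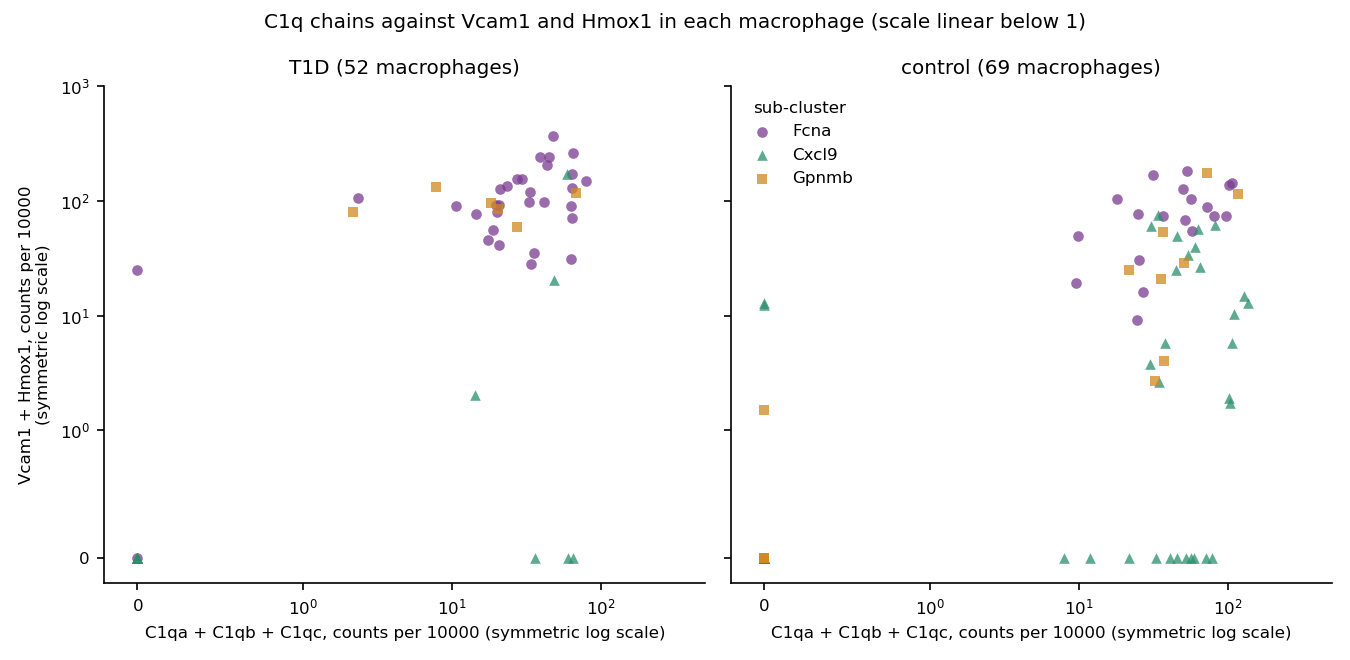
Each point is a macrophage, with C1q counts per 10000 of the cell's counts on the x axis and Vcam1 plus Hmox1 counts per 10000 on the y axis (both symmetric log axes), T1D at the left and control at the right, coloured by sub-cluster. Most Fcna cells lie high on both axes, while several Cxcl9 cells with C1q lie at 0 for Vcam1 plus Hmox1.

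Classical monocytes, the circulating cells that can replace tissue macrophages, held Hmox1 and little of the other genes. There were 2336 in T1D and 1859 in control, at median depths of 4232.5 and 5556 counts. Hmox1 had 74.5 CPM in T1D monocytes and 54.4 CPM in control monocytes, a ratio of 1.37 (1.23 to 1.52), with a count in 23.5% of T1D and 24.7% of control cells. It was the only one of the 10 with enough counts for the size rule and did not pass it, against 1.81% of 3207 genes passing as higher and 0.811% as lower. The libraries differed in the clusters that held these monocytes. In T1D 987 lay in cluster 6, 1227 in cluster 7 and 122 in cluster 10, and in control 781 lay in cluster 6, 196 in cluster 7 and 882 in cluster 10. Hmox1 was higher in T1D in all 3 clusters, at 41.7 CPM in T1D and 34.2 CPM in control cells of cluster 6, 109.5 CPM in T1D and 85.6 CPM in control cells of cluster 7, and 136 CPM in T1D and 79.8 CPM in control cells of cluster 10.

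The remaining genes were low in classical monocytes. Slc40a1 had 28.3 CPM in T1D and 16.8 CPM in control monocytes, and Axl had 8.60 CPM in T1D and 4.34 CPM in control monocytes. Vcam1 had 8.60 CPM in T1D and 4.01 CPM in control monocytes, and Mrc1 had 4.21 CPM in T1D and 6.18 CPM in control monocytes. Cd5l had 1 count in T1D and 0 in control monocytes. C1q had 45 counts in 14 T1D cells (4.03 CPM) and 21 counts in 12 control cells (1.75 CPM). Those C1q values lie beside 2.29 CPM in T1D and 3.22 CPM in control mature neutrophils, so they are not read as expression by monocytes.

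Nonclassical monocytes, which patrol vessel walls, came second to macrophages for C1q, but through a minority of cells. There were 99 in T1D and 76 in control. The C1q sum had 143 CPM in T1D and 492 CPM in control cells, a ratio of 0.291 (0.202 to 0.411). A C1q count was present in 7 T1D and 5 control cells. All but 1 of these T1D cells' 43 counts and all 147 control counts lay in a sub-cluster of 30 T1D and 25 control cells that has Fcna and Gdf15 among its leading genes. The other sub-cluster, with 69 T1D and 51 control cells, had 1 C1q count in T1D and 0 in control. Over the class, all chains and Mertk (3.33 CPM in T1D and 60.2 CPM in control) passed the size rule as lower, 4 of 9 genes with enough counts against 5.76% of 2831 genes. Cd5l, with 19 counts in T1D (63.2 CPM) and 2 in control cells (6.69 CPM), passed as higher, 1 of 9 against 5.44%. The median log2 ratio was -0.66 over all 10 genes, with Axl, which had too few counts for the rule, included, and -0.01 over all 2831. Since 7 T1D and 5 control cells carry the C1q counts, these values rest on few cells. The sub-cluster with nearly all of these counts met 6 of 10 nonclassical monocyte markers and also 6 of 16 macrophage markers. In it 4 T1D and 5 control cells held at least 5 of the 10 genes. Whether these cells are macrophages or doublets within the class was not tested.

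Hmox1 in nonclassical monocytes did not follow C1q. It had 170 CPM in T1D and 157 CPM in control cells, and in the sub-cluster nearly without C1q it had 166 CPM in T1D and 145 CPM in control cells. Slc40a1 had 106 CPM in T1D and 107 CPM in control cells. Vcam1 had 226 CPM in T1D and 301 CPM in control cells, and Mrc1 had 66.5 CPM in T1D and 131 CPM in control cells, a ratio of 0.510 (0.282 to 0.895).

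Conventional dendritic cells, which present antigen to T cells, held Mrc1 and hardly any other of the genes. There were 25 in T1D, under the 50 cells asked for in a comparison, and 65 in control. Mrc1 had 9 counts in 3 T1D cells (81.6 CPM) and 63 counts in 22 control cells (183 CPM), a ratio of 0.447 (0.195 to 0.904). C1q had 0 counts in T1D, where 3 counts would be 27.2 CPM, and 21 counts in 3 control cells (60.8 CPM). With 3 counts in place of 0, C1q was 2.24-fold lower in T1D. Axl had 0 counts in T1D and 14 in control cells. Plasmacytoid dendritic cells, the interferon-producing type, numbered 94 in T1D and 483 in control. Slc40a1 was at 17.9 CPM in T1D and 20.4 CPM in control plasmacytoid cells, and C1q had 0 counts in T1D and 4 in control plasmacytoid cells.

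Cells with these genes were also counted over all kept cells, which needs no clustering. At least 3 of the 10 were present in 103 T1D cells (0.661%) and 141 control cells (1.10%), a ratio of shares of 0.600 (0.461 to 0.779), and after thinning in 57 T1D and 71 control cells, a ratio of 0.660 (0.457 to 0.948). All 3 C1q chains were present in 38 T1D and 71 control cells, a ratio of 0.440 (0.289 to 0.661). This count was not repeated at equal depth, and 2 of these T1D and 16 of these control cells lay in unnamed clusters. Cd5l went the other way, in 45 T1D and 14 control cells, a ratio of 2.64 (1.42 to 5.21). Cells with both Vcam1 and Hmox1 numbered 95 in T1D and 84 in control, a ratio of 0.929 (0.686 to 1.26). Summed over all kept cells, C1q had 14.6 CPM in T1D and 38.0 CPM in control, a ratio of 0.385 (0.354 to 0.419), and Cd5l had 3.97 CPM in T1D and 0.628 CPM in control, a ratio of 6.31 (4.41 to 9.27). Only Vcam1, Slc40a1 and Hmox1 had enough counts there for the size rule, with ratios of 1.45, 1.39 and 1.57, and 0 of 3 passed, against 0.936% of 2779 genes passing as higher and 2.55% as lower. Macrophages held 40.8% of the T1D and 39.0% of the control cells with at least 3 genes. Immature neutrophils held 17.5% of these in T1D and 4.96% in control, and cells of unnamed clusters 5.83% in T1D and 19.9% in control, in part clusters left unnamed for mixed markers. No doublet caller was run, and the part of doublets in these cells was not tested.

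Other genes of the same pathways were counted without the 10. Of 19 further complement genes, 10 had enough counts in macrophages and 0 passed the size rule in either direction, with a median log2 ratio of -0.29. Of 21 further iron and heme genes, 16 had enough counts, with a median of -0.05. None of them passed as higher, against 7.59% of all genes with enough counts, and Blvrb, Ftl1 and Nfe2l2 passed as lower, against 8.35%. Blvrb, a biliverdin reductase, had 3 counts in T1D (17.0 CPM) and 31 in control macrophages (91.6 CPM), a ratio of 0.185 (0.0362 to 0.593). Blvra, the other biliverdin reductase of the list, had 215 CPM in T1D and 180 CPM in control macrophages. Its ratio of 1.19 (0.773 to 1.82) had an interval that spanned 1. Ftl1, the ferritin light chain that stores iron, had 373 CPM in T1D and 792 CPM in control macrophages, a ratio of 0.471 (0.354 to 0.618). Nfe2l2, a transcription factor of the oxidative stress response, had 119 CPM in T1D and 266 CPM in control macrophages, a ratio of 0.446 (0.263 to 0.724). Fth1, the ferritin heavy chain, had 2702 CPM in T1D and 3996 CPM in control macrophages, a ratio of 0.676 under the size rule. In the Fcna sub-cluster Fth1 did pass as lower, with 1167 CPM in T1D and 3072 CPM in control cells, a ratio of 0.380 (0.299 to 0.479), as did Ftl1, with 280.4 CPM in T1D and 842 CPM in control cells. There 7 of 15 further iron and heme genes passed as lower, against 6.29% of all genes, and 1 as higher, against 6.75%, with a median log2 ratio of -1.34 against 0.11 over all genes. In the Cxcl9 sub-cluster 3 of 9 further complement genes passed as lower, against 3.15%, and 0 as higher, against 10.8%, with a median of -1.22 against 0.35 over all genes.

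Of 19 further genes of scavenging and dead cell uptake, 14 had enough counts in macrophages, 3 passed as higher, against 7.59% of all genes, and 1 as lower, against 8.35%, with a median log2 ratio of 0.09. Cd36, a receptor for oxidised lipid, had 249 CPM in T1D and 70.9 CPM in control macrophages, a ratio of 3.51 (2.09 to 6.03). Marco, a scavenger receptor for bacteria and particles, had 26 counts in T1D and 0 in control macrophages, all 26 in the Fcna sub-cluster. Mfge8, which bridges dying cells to phagocytes, had 21 counts in T1D and 4 in control macrophages, 20 of the T1D and 3 of the control counts in the Gpnmb sub-cluster of 6 T1D and 12 control cells. Itgav, an integrin chain that binds Mfge8, passed as lower, at 39.6 CPM in T1D and 91.6 CPM in control macrophages. Of 12 macrophage transcription factors, 10 had enough counts and Cebpb, a factor of inflammatory and myeloid genes, passed as higher, with 311 CPM in T1D and 32.5 CPM in control macrophages, a ratio of 9.56 (4.95 to 20.3). Spic, needed for iron-recycling macrophages, had 362 CPM in T1D and 251 CPM in control macrophages, under the size rule. The median over these factors was -0.31.

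In classical monocytes the same lists gave genes past the size rule in both directions. C5ar1, the receptor for the complement fragment C5a, was higher, with 60.7 CPM in T1D and 25.4 CPM in control monocytes. Cfp, properdin, which stabilises the alternative pathway, was lower, with 118 CPM in T1D and 267 CPM in control monocytes. Ftl1 was lower, with 152 CPM in T1D and 313 CPM in control monocytes. Cebpb was higher, with 300.5 CPM in T1D and 105 CPM in control monocytes, and Atf3, a stress factor, was lower, with 132 CPM in T1D and 394 CPM in control monocytes. Cebpb was thus higher and Ftl1 lower in T1D in both macrophages and classical monocytes.

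Across the 13 classes, genes with the most similar pattern were found by Pearson's r of log2 CPM over 5013 genes, as a description in which macrophages are 1 extreme point. Each pair of values below is for T1D and then for control. For the C1q sum these were Fcna (r of 0.979 in T1D and 0.995 in control), Fabp4 (0.978 and 0.985) and Pparg (0.988 and 0.975). For Cd5l they were Igf1 (0.993 and 0.994) and Nr1h3 (0.991 and 0.995). For Hmox1 the most similar was Il18 (0.967 and 0.946), and for Mertk and Mrc1 it was Fcna, at 0.974 in T1D and 0.996 in control for Mertk and 0.981 and 0.986 for Mrc1. Slc40a1 had no close match, its most similar gene being Serpinb6a at 0.805 in T1D and 0.798 in control.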

How the data were processed

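Marrow cells of 1 T1D and 1 control library were measured by single-cell RNA sequencing. The authors deposited a table of raw counts for each library, genes by barcodes. The submitters' processing notes name bcl2fastq 2.19, featureCounts and the mouse build mm9. No aligner is named in the sources used here and no treatment of molecular identifiers or multi-mapped reads, so counts may not be single molecules. The libraries hold 52022458 counts in T1D and 57494166 in control.

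A cell was kept with 200 or more genes and no more than 20% mitochondrial counts, which removed 192 T1D and 77 control barcodes. No doublet caller was run. A cluster was left unnamed where another class had at least 75% of its markers, or more markers among the 10 leading genes. Types of monocyte, neutrophil or B cell counted as 1 class here. Named clusters can thus hold some markers of a second class. Leiden clustering (igraph 0.11.9, 15 neighbours, 30 components, resolution 1, best modularity of 10 starts) used both libraries without integration and without the 10 genes. Clusters of macrophages, conventional dendritic cells and nonclassical monocytes were clustered again with 500 genes per library and 10 components, a step chosen after seeing the data. Names required 3 or more markers, each at 50 CPM or above and 2-fold over the other cells.

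CPM is a gene's summed counts in a class over all counts of that class and library, times 1000000. Levels carry exact Poisson intervals, shares Clopper-Pearson intervals and ratios conditional binomial intervals. The ratio of the libraries is T1D over control, and a fold against 0 uses a floor of 3 counts. Other genes named in the text are those of the pathway lists past the size rule, list genes of a stated role and the 3 to 5 genes most like each pattern, and some list genes are not reported here. The genes, markers and lists were chosen with earlier results of these data known. Only the size rule was tested on simulated counts, drawn from the control profiles of macrophages and classical monocytes. Python 3.11.15, numpy 2.4.6, scipy 1.17.1 and pandas 2.3.3 were used, and edgeR 4.0.16 and DESeq2 1.42.0 gave only the scaling factors of the alternatives. Alternatives covered scaling, filters, clustering and cells left out.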

Additional observations from a re-analysis of the deposited data

Results flagged for a closer look

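Vcam1 and Mrc1 differed in opposite directions between groups of cells, each with a counting interval of the ratio clear of 1, and the difference between the groups was not tested. The log2 ratio of Vcam1 of T1D over control was 1.11 in macrophages, 0.37 in their Fcna sub-cluster and 1.67 in their Gpnmb sub-cluster, but -0.75 in their Cxcl9 sub-cluster. The log2 ratio of Mrc1 was 0.94 in macrophages, 0.35 in the Fcna sub-cluster and 1.90 in the Gpnmb sub-cluster, but -0.66 in the Cxcl9 sub-cluster, -0.92 in nonclassical monocytes and -1.11 in conventional dendritic cells. These values include cells with few macrophage markers. Without cells under 3 macrophage markers, the log2 ratio of Vcam1 was 0.41 in the Fcna, 1.17 in the Gpnmb and -0.14 in the Cxcl9 sub-cluster, where the interval of the ratio spanned 1. That of Mrc1 was then 0.38 in the Fcna, 1.40 in the Gpnmb and -0.03 in the Cxcl9 sub-cluster, where the interval also spanned 1, so the opposite directions within macrophages rest on those cells.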

How the results depend on the processing

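No paired analysis was possible because there was 1 library per group, and no replicate could be left out. Of 153 alternative values of the summary results, 123 kept their size and direction, 29 moved and 1 reversed. Of 340 log2 ratios of single genes in macrophages and classical monocytes, 300 stayed and 40 moved. For single genes a reversal could be counted only where the gene passed the size rule in the main setting. In macrophages the log2 ratio changed sign in 1 alternative for Mertk (-0.26) and in 1 for Axl (0.06). In classical monocytes each C1q chain had values on both sides of 0. In macrophages the log2 ratio of the C1q sum was below 0 in all 17 alternatives (-0.81 to -0.14) and that of Cd5l above 0 in all 17 (2.74 to 3.65). At most 10% mitochondrial counts (47 T1D and 56 control cells) gave 1 gene lower by the size rule, with at least 3 genes in 93.6% of T1D and 91.1% of control cells and any C1q in 91.5% of T1D and 91.1% of control cells. Taking cells by at least 3 macrophage markers without clusters (294 T1D and 472 control cells) gave 1 gene lower, a C1q log2 ratio of -0.76, at least 3 genes in 20.4% of T1D and 19.9% of control cells and any C1q in 19.0% of T1D and 21.0% of control cells. The alternatives from here on were chosen after seeing the data. The second step with 1000 genes and 15 components gave 1 gene higher, 1 lower and a ratio of macrophage shares of 1.01, which is the reversal, with at least 3 genes in 97.3% of T1D and 100% of control cells and any C1q in 94.6% of T1D and 100% of control cells. The second step without nonclassical monocytes (41 T1D and 60 control cells) gave at least 3 genes in 97.6% of T1D cells and any C1q in 95.1% of T1D and 90.0% of control cells. Without the Gpnmb sub-cluster 1 gene was lower and the C1q log2 ratio was -0.81. Without cells under 3 macrophage markers, T1D cells had at least 3 genes in 97.7% and any C1q in 95.3%. Without the Cxcl9 sub-cluster the C1q log2 ratio was -0.14 and the ratio of shares 0.981, with at least 3 genes in 97.3% of T1D and 90.3% of control cells and any C1q in 94.6% of T1D cells. Why these values moved was not tested. With 52 T1D and 69 control macrophages, genes with few counts such as Mertk have wide intervals, and no setting supplies replicates.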
